A study of Mus musculus with 14 samples.

Results

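Potassium channel genes were taken as every gene of the count tables whose symbol starts with Kcn and a further letter, apart from Kcne2 and Kcnj13, which mark the choroid plexus. This gave 94 genes of 27591 listed in either table, 93 in the table of the basal experiment and 93 in that of the learning experiment, with 92 in both. Kcnk16 was listed only in the basal table and Kcnj1 only in the learning table. The symbols Kcnb2 and Kcnh8 each stood for 2 gene models, which were kept apart. RNA came from the dorsal hippocampus. The mice were males, aged 8 months, and either wild-type (WT) or heterozygous for THY-Tau22 (TAU), a transgene that drives mutated human Tau in neurons from a Thy1 promoter. The basal experiment compared untrained WT mice (WT basal, n = 3) and untrained TAU mice (TAU basal, n = 2). In the learning experiment WT mice stayed in the home cage (WT VEH_HC, n = 3) or were trained in a water maze (WT VEH, n = 2), and trained TAU mice received the carbon nanosphere CSP (TAU VEH, n = 2) or CSP carrying TTK21, an activator of the acetyltransferases CBP and p300 (TAU MOL, n = 2). The WT mice of the learning experiment received saline, so genotype and carrier cannot be told apart between TAU VEH and WT VEH.

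Potassium channels let potassium leave the cell and thereby set the resting potential, end the action potential and limit repeated firing. The voltage-gated families (Kcna, Kcnb, Kcnc, Kcnd, Kcnq, Kcnh) open on depolarization, the inward rectifiers (Kcnj) and tandem-pore channels (Kcnk) carry current near rest, and Kcnma1, Kcnn and Kcnt answer to calcium or sodium. Kcnf, Kcng, Kcns and Kcnv encode silent subunits that modify other channels, and Kcnab, Kcnip, Kcnmb and Kcne encode auxiliary proteins that carry no pore of their own. Kcnh3 encodes a voltage-gated subunit of the forebrain that restrains the excitability of hippocampal pyramidal cells. Kcnq5 encodes a subunit of the M-current, a slow current that muscarinic receptors suppress.

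What the pore-forming members share is the selectivity filter, and the sequences of 4 members named below are shown around it to let the same short stretch be compared across distant subfamilies. The filter was searched in the longest coding sequence of each gene as the run of codons for serine or threonine, then valine, isoleucine or leucine, glycine, tyrosine, phenylalanine or leucine, and glycine. It was found in 76 of the 78 members outside the auxiliary list and in none of the 16 auxiliary members, against 1.25% of all 22737 genes with a coding sequence. The 2 without it were the shorter gene models of Kcnb2 and Kcnh8. Of the 14 Kcnk genes, 12 held it at 2 places. The stretches are given 5′ to 3′ on the coding strand of mm9, with the codons of the signature in capitals. They lie in coding exons at chr3:106908118-106908177 (Kcna2, plus strand), chr5:23831352-23831411 (Kcnh2, minus strand), chr15:79315776-79315835 (Kcnj4, minus strand) and chr14:24347614-24347673 (Kcnma1, minus strand).
Kcna2: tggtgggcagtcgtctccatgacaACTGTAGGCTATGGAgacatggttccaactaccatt
Kcnma1: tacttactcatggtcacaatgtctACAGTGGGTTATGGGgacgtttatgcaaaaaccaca
Kcnh2: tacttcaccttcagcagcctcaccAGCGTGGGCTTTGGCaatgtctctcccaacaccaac
Kcnj4: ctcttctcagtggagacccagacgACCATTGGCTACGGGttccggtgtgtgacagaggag
The GC content of the whole coding sequence was 48.1% for Kcnma1 and 49.3% for Kcna2, and 60.6% for Kcnh2 and 59.6% for Kcnj4.

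Levels are in CPM, a gene's count scaled by library depth, with TMM factors that even out library composition. CPM per kb of exon was used only to compare genes with each other. In the 9 learning libraries, 30 members stood at 10 CPM per kb or more, 34 between 1 and 10, 17 between 0.1 and 1, and 12 below 0.1. Kcnab2, the beta subunit of Kcna channels, had the highest level at 287 CPM per kb, followed by Kcnip2, a calcium-binding partner of Kcnd channels, at 86.3. Of the pore-forming members, not all of which are reported here, Kcnj10 stood at 55.8, Kcnj4 at 48.2 and Kcnh3 at 44.3 CPM per kb. Kcnk1 led the tandem-pore genes at 30.2, Kcng2 the silent subunits at 25.9 and Kcnn2 the calcium- and sodium-activated genes at 13.9, whereas Kcnq5 stood at 10.6 CPM per kb. The Kcng2 gene model held only 705 exon bases and 235 codons, beside 434 to 515 codons in the other Kcng genes. Without scaling by length, the WT VEH mean of Kcng2 was 19.5 CPM and that of Kcnf1 61.4.

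**Figure D1:**
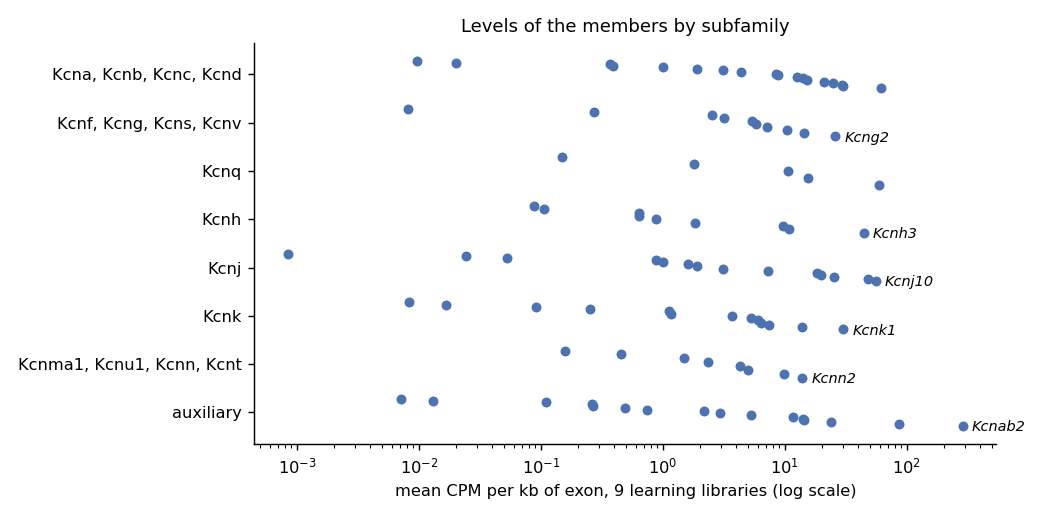
Mean CPM per kb of exon over the 9 learning libraries (log scale) for each member with a count above 0, in rows by subfamily. The member with the highest level is named in 6 of the rows, and Kcnab2 at 287 CPM per kb stands apart from the rest.

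Several members are known from cells other than principal neurons, and they were followed across groups as a description. Kcnj10, the main inward rectifier of astrocytes, ran from 267 to 293 CPM in TAU VEH and from 286 to 318 in WT VEH. Its partner Kcnj16 stood at 13.6 and 14.1 CPM in TAU VEH and at 10.8 and 13.5 in WT VEH. Kcnc1 and Kcnc2, which serve fast-spiking interneurons, stood at 232 to 237 and at 92.2 to 95.0 CPM in TAU VEH, against 258 to 265 and 78.0 to 83.0 in WT VEH. The pericyte gene Kcnj8 stayed between 1.87 and 2.70 CPM in all 9 learning libraries. Kcnk13 and Kcnk6, found in microglia, ran from 7.92 to 14.5 and from 3.40 to 6.39 CPM. None of these genes was called by edgeR between TAU VEH and WT VEH in the main fit. Kcnc2 was called higher with library size as the only scaling and with only the compared groups in the fit.

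Libraries held 28639121 to 37681155 counts in the basal and 24693713 to 52180305 in the learning experiment. Thy1, whose promoter drives the transgene, stood at 1805 to 2352 CPM in the 6 TAU libraries and at 786 to 914 in the 8 WT libraries, as the labels require. The summed level of 14 choroid plexus markers ran from 1594 to 2457 CPM in WT VEH, from 79.8 to 238 in WT VEH_HC, from 241 to 288 in TAU VEH and from 718 to 785 in TAU MOL, so that it moved with every learning comparison. The correlation of a gene's GC content with its level relative to the other libraries ran from 0.086 to 0.46 in the WT libraries of the learning experiment and from -0.62 to -0.40 in its TAU libraries. Each comparison used edgeR's quasi-likelihood test over all genes that passed a filter on low counts, and a gene was called when its adjusted p was under 0.05 and its log2 fold change exceeded 0.2 in either direction. Of the members, 81 of 93 passed the filter in the basal and 82 of 93 in the learning experiment. Those that did not pass reached at most 0.45 CPM in any library.

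In untrained mice no potassium channel gene was called between TAU and WT (n = 2 and 3). Over all genes, 0.00613% were called higher and 0.0184% lower in TAU basal. With edgeR, 6 of 81 members and 803 of 16324 genes had an unadjusted p under 0.05, and DESeq2 called 0 members. The member with the smallest p was Kcnj2, an inward rectifier, at 12.4, 12.1 and 11.7 CPM in WT basal and 15.7 and 18.8 in TAU basal. Its log2 fold change of 0.52 ± 0.13 (SE) did not pass the test (edgeR, adjusted p = 0.661). Kcnma1, the large-conductance calcium-activated channel, stood at 37.4, 23.5 and 35.9 CPM in WT basal and at 42.2 and 52.0 in TAU basal, a log2 fold change of 0.55 ± 0.19 (edgeR, adjusted p = 0.901). Both TAU libraries lay above the WT libraries for these genes.
Among the WT libraries replicate 2 stood low for several members, with Kcna2 at 8.16 CPM beside 21.5 and 18.4 in the others and Kcnq3 at 14.4 beside 26.8 and 24.9.
Kcnh3 stood at 106, 127 and 111 CPM in WT basal and at 123 and 83.0 in TAU basal. The groups overlapped, with a log2 fold change of -0.15 ± 0.17 (edgeR, adjusted p = 0.921), which was 0.11 without TAU basal replicate 2 and -0.44 without replicate 1. Kcnq5 stood at 69.4, 61.9 and 64.2 CPM in WT basal and at 63.6 and 70.4 in TAU basal, and again the groups overlapped (log2 fold change 0.04 ± 0.11; edgeR, adjusted p = 0.970). The TAU basal library with the low Kcnh3 value, replicate 2, had a GC correlation of -0.60 and replicate 1 one of 0.48, a wider gap than between any 2 learning libraries of a group.

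**Figure D2:**
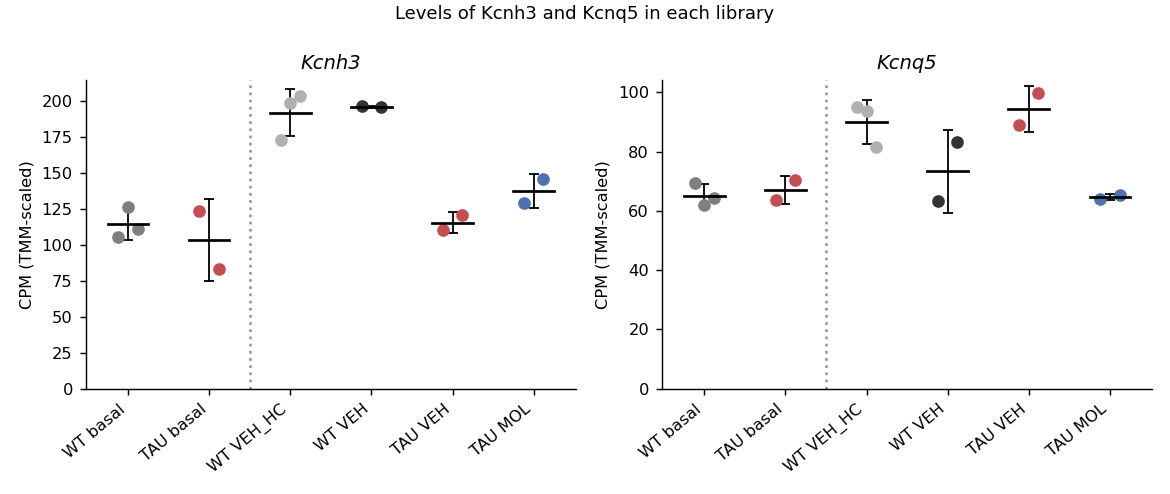
Kcnh3 and Kcnq5 in each library (points, TMM-scaled CPM) with the mean (bar) and SD (whisker) of each group, the basal experiment left and the learning experiment right of the dotted line, each normalized on its own. Kcnh3 lies between 111 and 146 CPM in the 4 trained TAU libraries and between 173 and 204 in the 5 WT libraries of the learning experiment, and Kcnq5 lies at 89.0 and 99.8 CPM in TAU VEH and at 64.1 and 65.5 in TAU MOL.

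Between trained and home-cage WT mice 11 potassium channel genes were called, of which 10 were lower in WT VEH than in WT VEH_HC and 1 was higher (n = 2 and 3). Of the 82 members tested, 12.2% were called lower and 1.22% higher, beside 3.05% and 5.35% of all 16820 genes. The median log2 fold change was -0.10 over the members and -0.003 over all genes, and over the members it was -0.054 without WT VEH_HC replicate 3, -0.053 with the GC and length correction, -0.051 with the replicate block and -0.032 with both of these. The lower genes lay in most classes and included Kcna4, Kcnc1 and Kcnd3 of the voltage-gated families, Kcnq3 of the M-current, the silent subunits Kcnf1 and Kcns1, the G protein-gated rectifier subunit Kcnj9, the leak channel Kcnk9 and Kcnma1. In this fit no member of the Kcnh family or of the auxiliary proteins was called, but Kcnh7 was called higher and Kcnip2 lower with DESeq2, with no filter and with the replicate block, and other auxiliary genes were called under some settings.
Kcns1, a silent partner of Kcnb channels, fell from 17.1, 19.3 and 18.3 CPM in the home cage to 10.1 and 14.8 after training (log2 fold change -0.55 ± 0.15; edgeR, adjusted p = 0.0438). The change of Kcns1 was -0.30 without WT VEH replicate 1, where it was not called, and -0.85 without WT VEH replicate 2. Kcna4, an inactivating channel of axons, fell from 22.8, 26.4 and 25.8 to 16.6 and 18.8 CPM (-0.50 ± 0.10; edgeR, adjusted p = 0.0191). Kcnd3, an A-type channel, fell from 88.1, 103 and 84.2 to 63.6 and 67.5 CPM (-0.49 ± 0.09; edgeR, adjusted p = 0.0103). For all 3 genes the trained libraries lay below every home-cage library, as the rule for naming them required. Kcnf1 fell from 85.3, 97.2 and 71.4 to 57.3 and 65.6 CPM (-0.46 ± 0.12; edgeR, adjusted p = 0.0383), without overlap by the same rule. It was not called without WT VEH_HC replicate 1 (edgeR, adjusted p = 0.0763) or WT VEH_HC replicate 2 (adjusted p = 0.0552). With the GC and length correction Kcna4 and Kcnd3 stayed called, whereas Kcns1 and Kcnf1 did not. Kcnk1, a leak channel of astrocytes and neurons, was the one member that rose, from 55.7, 58.7 and 67.1 to 75.1 and 78.1 CPM (0.34 ± 0.08; edgeR, adjusted p = 0.0311).
The other 6 lower members ranged from -0.43 for Kcnk9 to -0.24 for Kcnma1. Kcnh3 did not separate, at 173, 199 and 204 CPM in the home cage and 197 and 196 after training (0.03 ± 0.08; edgeR, adjusted p = 0.831). Kcnq5 stood at 94.9, 93.8 and 81.5 CPM in the home cage and at 63.4 and 83.2 after training, and the groups overlapped (-0.30 ± 0.11; adjusted p = 0.105 with edgeR and 0.0435 with DESeq2). Kcnq5 was called lower with DESeq2, with no filter, with the replicate block (adjusted p = 0.0247) and without WT VEH_HC replicate 3 (-0.36). Its log2 fold change was -0.11 without WT VEH replicate 1 and -0.50 without WT VEH replicate 2.
The call counts of members and of all genes moved together when a library was left out. From 11 members and 1413 genes they went to 0 and 73 without WT VEH replicate 1, to 1 and 282 without WT VEH replicate 2, to 4 and 614 without WT VEH_HC replicate 1, to 6 and 952 without WT VEH_HC replicate 2, and to 16 and 2798 without WT VEH_HC replicate 3. All 14 choroid plexus markers were called higher in WT VEH. Their score, the mean log2 CPM of the markers, was 4.73 and 4.06 in WT VEH and 0.57, 0.44 and 1.73 in WT VEH_HC. Because the score follows the groups, a model that holds it cannot tell it apart from training. With the score in the model 0 members and 0 of all 16820 genes were called. In that model Kcnk1, Kcnd3, Kcnf1, Kcnq5 (0.44) and Kcnh3 (-0.22) were among the members that took the opposite sign. In this comparison 2 of the 5 CA3 markers and 1 of the 5 dentate gyrus markers were called lower, 1 of the 6 microglia markers and 1 of the 5 interneuron markers were called higher, and 0 of the 5 CA1 markers were called. In bulk tissue, fewer cells of a type and less RNA per cell cannot be told apart.

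Between trained TAU mice given the carrier and trained WT mice, 17 potassium channel genes were called, 12 lower and 5 higher in TAU VEH (n = 2 and 2). Of the 82 members tested, 14.6% were called lower and 6.10% higher, beside 10.8% and 3.61% of all genes. The median log2 fold change was -0.09 over the members and 0.004 over all genes. The member median took the opposite sign with library size alone (0.060), with the GC and length correction (0.025), with the replicate block added to that correction (0.030) and without WT VEH replicate 2 (0.012). The higher genes were Kcna1, Kcna2 and Kcnd3 of the voltage-gated families, Kcnma1, and the sodium-activated Kcnt2. The lower genes included Kcnd1, Kcnh2 and Kcnh3, the rectifier Kcnj4, the leak channels Kcnk2, Kcnk3 and Kcnk12, Kcnt1, and the beta subunits Kcnab2 and Kcnab3. None of the 9 silent subunits tested was called in this fit, whereas Kcnv1 was called higher with library size alone or only the groups compared, Kcns2 higher with the former and Kcng1 lower with the latter.
With library size as the only scaling, 13 members were called higher and 8 lower, beside 2578 and 1020 of all genes, and the median of all genes moved to 0.15.

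**Figure D3:**
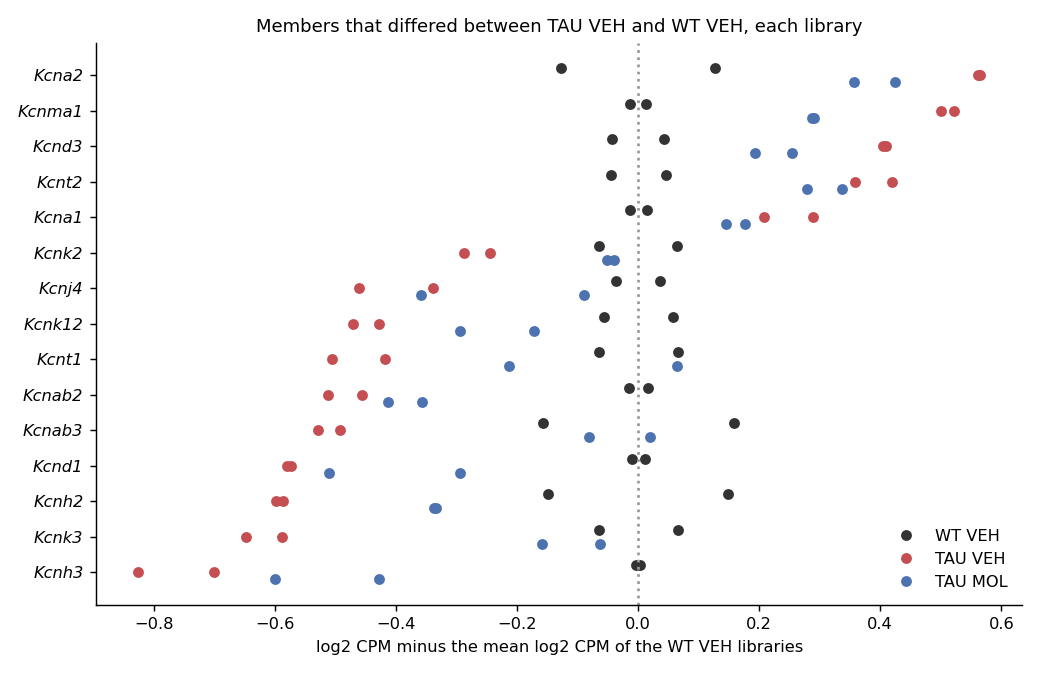
log2 CPM of each library minus the mean log2 CPM of the WT VEH libraries, for the members named as called between TAU VEH and WT VEH, with the TAU MOL libraries shown beside them. TAU VEH lies outside the WT VEH libraries in each row, from Kcna2 at the top to Kcnh3 at the bottom.

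Kcnh3 had the largest fall of the 82 members tested in the main fit, whereas Kcnd1 fell further than Kcnh3 with the GC and length correction. It lies on chromosome 15 of mm9 from 99055292 to 99073248 on the plus strand, and 61.2% of its exon bases are G or C. Its level was 197 and 196 CPM in WT VEH and 111 and 121 in TAU VEH, with TAU VEH far below (log2 fold change -0.76 ± 0.09; edgeR, adjusted p = 0.00101). Kcnk3, an acid-sensitive leak channel, fell from 23.6 and 21.5 to 14.4 and 14.98 CPM (-0.62 ± 0.10; edgeR, adjusted p = 0.00184). Kcnh2, a slowly deactivating channel best known from the heart, fell from 59.8 and 48.7 to 35.9 and 35.6 CPM (-0.60 ± 0.10; edgeR, adjusted p = 0.00291). Kcnd1, an A-type channel, fell from 19.2 and 18.9 to 12.8 and 12.7 CPM (-0.58 ± 0.10; edgeR, adjusted p = 0.00291). In these 4 genes both TAU VEH libraries lay below both WT VEH libraries, as the rule for naming them required. The WT VEH libraries lay close together for Kcnh3 and Kcnd1 and apart for Kcnh2, whose log2 fold change ran from -0.74 to -0.44 without 1 library.
Of the other lower members, Kcnab3 had a log2 fold change of -0.52 and Kcnk2 the smallest, at -0.27. Kcnab3 was not called without WT VEH replicate 1 (-0.35; edgeR, adjusted p = 0.0726) or without TAU VEH replicate 1 (-0.54; adjusted p = 0.0523), and Kcnk2 was called only without WT VEH replicate 2 (-0.33) when 1 library was left out. Kcnj4, Kcnk12 and, among the higher members, Kcna1 lost their call whichever of the 4 libraries was left out. Kcnt1 had a log2 fold change of -0.46, which ran from -0.53 to -0.39 without 1 library. It was not called with the GC and length correction, though it was with the replicate block added. Kcnab2, the member of highest level, stood at 1766 and 1805 CPM in WT VEH and 1251 and 1301 in TAU VEH.
Kcna2, a low-threshold channel of axons, rose from 26.2 and 21.9 to 35.4 and 35.4 CPM (0.56 ± 0.10; edgeR, adjusted p = 0.00436). Kcnma1 rose from 39.2 and 38.5 to 54.9 and 55.7 CPM (0.51 ± 0.07; edgeR, adjusted p = 0.00127). Kcnd3 rose from 63.6 and 67.5 to 86.9 and 86.7 CPM (0.41 ± 0.09; edgeR, adjusted p = 0.0125), and Kcnt2 from 13.8 and 13.0 to 17.9 and 17.2 (0.39 ± 0.08; edgeR, adjusted p = 0.00997). Kcnd3 was not called whichever of the 4 libraries was left out (edgeR, adjusted p from 0.0524 to 0.0998) or with the GC and length correction, and its log2 fold change was 0.04 with the choroid plexus score in the model. Kcnt2 was not called without WT VEH replicate 2 (0.34), without TAU VEH replicate 1 (0.35) or with the GC and length correction (0.25). Kcna1, which pairs with Kcna2 in axons, had the smallest rise of the 5, at 0.25. Kcnma1 and Kcnd3 were also lower in WT VEH than in WT VEH_HC, a comparison that shares the WT VEH libraries.
Kcnq5 stood at 63.4 and 83.2 CPM in WT VEH and at 89.0 and 99.8 in TAU VEH. The groups did not overlap, and the log2 fold change of 0.36 ± 0.12 did not pass the test with edgeR (adjusted p = 0.0643) whereas it did with DESeq2 (adjusted p = 0.0108). edgeR called Kcnq5 higher with library size alone, no filter, the replicate block (adjusted p = 0.0243) and only the groups compared. Its log2 fold change was 0.19 without WT VEH replicate 1 and 0.57 without WT VEH replicate 2, where it was called, and -0.13 with the choroid plexus score in the model. Its exon bases are 47.0% G or C, and 3.07% of them overlap the antisense model Gm16705, whose reads cannot be told apart without strand.

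GC content of the exons moved with this comparison. The 12 lower members had 51.4% to 70.2% GC and the 5 higher members 36.4% to 50.5%, and across the 82 members, which share libraries, Spearman's rho between GC content and log2 fold change was -0.64. After each library was corrected for GC and length, rho was -0.16 and 4 members were called beside 581 of all genes, Kcnma1 (log2 fold change 0.39; adjusted p = 0.0133) and Kcna2 (0.53; adjusted p = 0.0166) higher and Kcnh3 (-0.44; adjusted p = 0.0126) and Kcnd1 (-0.49; adjusted p = 0.0282) lower (all edgeR). Kcnh2 moved from -0.60 to -0.26 (adjusted p = 0.199) and Kcnj4 from -0.40 to -0.12 (adjusted p = 0.586) with this correction. With the replicate block added to it, 5 members were called higher and 7 lower, beside 139 and 729 of all genes. Kcnh3, Kcnd1, Kcna2 and Kcnma1 were each called in 8 of the 9 alternative fits that kept every library of the groups compared. The exception was the choroid plexus score in the model, where 0 members and 0 of all genes were called and the log2 fold change of Kcnh3 was -0.60. That score followed the groups, at 4.73 and 4.06 in WT VEH and 1.89 and 2.20 in TAU VEH, so the model cannot tell it apart from them. Leaving out 1 library left 9 members and 1223 of all genes without WT VEH replicate 1, 12 and 1276 without WT VEH replicate 2, 8 and 915 without TAU VEH replicate 1, and 9 and 1232 without TAU VEH replicate 2, from 17 and 2423. Kcna2 was not called without WT VEH replicate 2 (0.43; adjusted p = 0.0541). Kcnh3, Kcnd1, Kcnh2, Kcnk3, Kcnab2 and Kcnma1 were called in all 4.
Of the CA1 markers 4 of 5 were called lower in TAU VEH, with a summed level of 584 to 619 CPM beside 994 to 1069 in WT VEH and no marker at 0. Likewise 2 of the 5 interneuron markers and 2 of the 5 pan-neuronal markers were called lower, as were 1 of the 6 microglia and 1 of the 5 thalamus markers, and 2 of the 5 astrocyte markers were called higher. All 14 choroid plexus markers were called lower. The part of these cell types in the channel results was not tested.

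**Figure D4:**
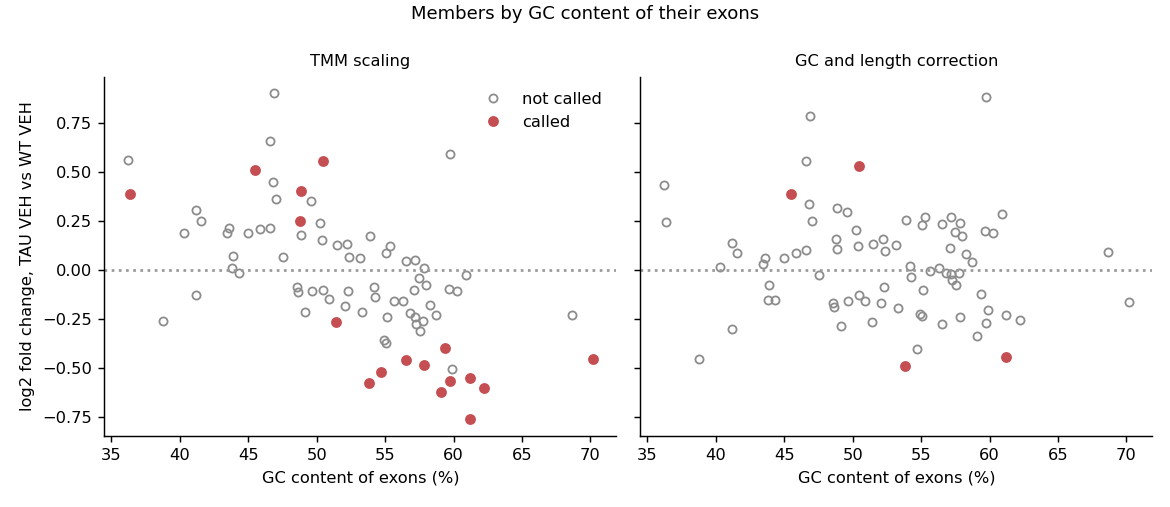
log2 fold change between TAU VEH and WT VEH of the 82 members tested against the GC content of their exons, with TMM scaling (left) and after correction for GC content and length (right). Filled points are members called, 17 on the left and 4 on the right.

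TTK21 was compared with its carrier in trained TAU mice (n = 2 and 2), and in the main fit edgeR called no member and 0% of all genes in either direction. At an unadjusted p under 0.05 there were 14 of 82 members, beside 1064 of 16820 genes. DESeq2 called 2 members higher and 1 lower, beside 0.179% and 0.123% of its 17888 genes. With only the groups compared, edgeR called Kcnab3, Kcnh7 and Kcnk3 higher and Kcnq5 lower, beside 60 of all genes. With no filter it called the same genes and Kcnt1 higher, beside 233 of all genes.
Kcnk3 stood at 14.4 and 14.98 CPM in TAU VEH and at 21.6 and 20.2 in TAU MOL, with both TAU MOL libraries above (log2 fold change 0.51 ± 0.10; adjusted p = 0.213 with edgeR and 0.0228 with DESeq2). Kcnab3, a beta subunit, stood at 26.1 and 25.4 CPM in TAU VEH and at 37.2 and 34.7 in TAU MOL (0.48 ± 0.10; adjusted p = 0.254 with edgeR and 0.0242 with DESeq2). Kcnq5 went the other way, from 89.0 and 99.8 to 64.1 and 65.5 CPM (-0.54 ± 0.12; adjusted p = 0.254 with edgeR and 0.00349 with DESeq2), and its log2 fold change was -0.30 with the choroid plexus score in the model. For these 3 genes the TAU VEH and TAU MOL libraries did not overlap.
Kcnh3 stood at 111 and 121 CPM in TAU VEH and at 129 and 146 in TAU MOL, without overlap and short of the threshold with either tool (0.25 ± 0.09; adjusted p = 0.652 with edgeR and 0.596 with DESeq2). Its log2 fold change was 0.17 without TAU MOL replicate 2 and 0.15 with the GC and length correction. The median log2 fold change of the members was 0.07 and that of all genes 0.009. No marker of any list passed the test. The median log2 fold change was 1.17 over the 14 choroid plexus markers, 0.46 over the 5 CA1 markers, 0.33 over the 5 interneuron markers and -0.32 over the 5 CA3 markers. The summed CA1 level was 584 to 619 CPM in TAU VEH and 851 to 853 in TAU MOL, and the summed interneuron level 718 to 748 and 827 to 914 CPM. The summed CA3 level was lower in TAU MOL, at 1391 to 1440 CPM in TAU VEH and 1192 to 1276 in TAU MOL. Their part in the channel values was not tested.

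Against trained WT mice, 4 members were called in TAU MOL, Kcnma1 higher and Kcnh3, Kcnab2 and Kcnd1 lower (n = 2 and 2), which is 1.22% and 3.66% of the members beside 0.612% and 5.02% of all genes. This comparison shares WT VEH with that of TAU VEH against WT VEH, and TAU MOL with that of TTK21 against its carrier. Kcnma1 stood at 39.2 and 38.5 CPM in WT VEH and at 47.5 and 47.3 in TAU MOL (0.29 ± 0.07; edgeR, adjusted p = 0.0383). Kcnh3 stood at 197 and 196 CPM in WT VEH and at 129 and 146 in TAU MOL (-0.51 ± 0.09; edgeR, adjusted p = 0.0116). Kcnd1 fell from 19.2 and 18.9 to 13.4 and 15.5 CPM (-0.40 ± 0.10; edgeR, adjusted p = 0.0369), and Kcnab2 from 1766 and 1805 to 1341 and 1393 CPM (-0.39 ± 0.06; edgeR, adjusted p = 0.00996). The groups did not overlap in these 4 genes, a condition of the rule for naming genes.
Kcnq5 overlapped, at 63.4 and 83.2 CPM in WT VEH beside 64.1 and 65.5 in TAU MOL (-0.18 ± 0.12; edgeR, adjusted p = 0.464). Its log2 fold change was -0.35 without WT VEH replicate 1 and 0.03 without WT VEH replicate 2. Members called were 0 with the GC and length correction (23 of all genes), 0 with the choroid plexus score in the model (2 of all genes), 0 without either WT VEH replicate 1 or 2 (4 of all genes each) and 0 without either TAU MOL replicate 1 or 2 (2 of all genes each). Spearman's rho between GC content and log2 fold change was -0.50 across the 82 members. Of the markers, 9 of 14 for the choroid plexus were called lower, as was 1 each of the CA1, CA3, microglia and pan-neuronal lists, and 1 astrocyte marker was called higher, and their part was not tested. With library size alone, 6 members were called higher and 2 lower, beside 757 and 326 of all genes.

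**Figure D5:**
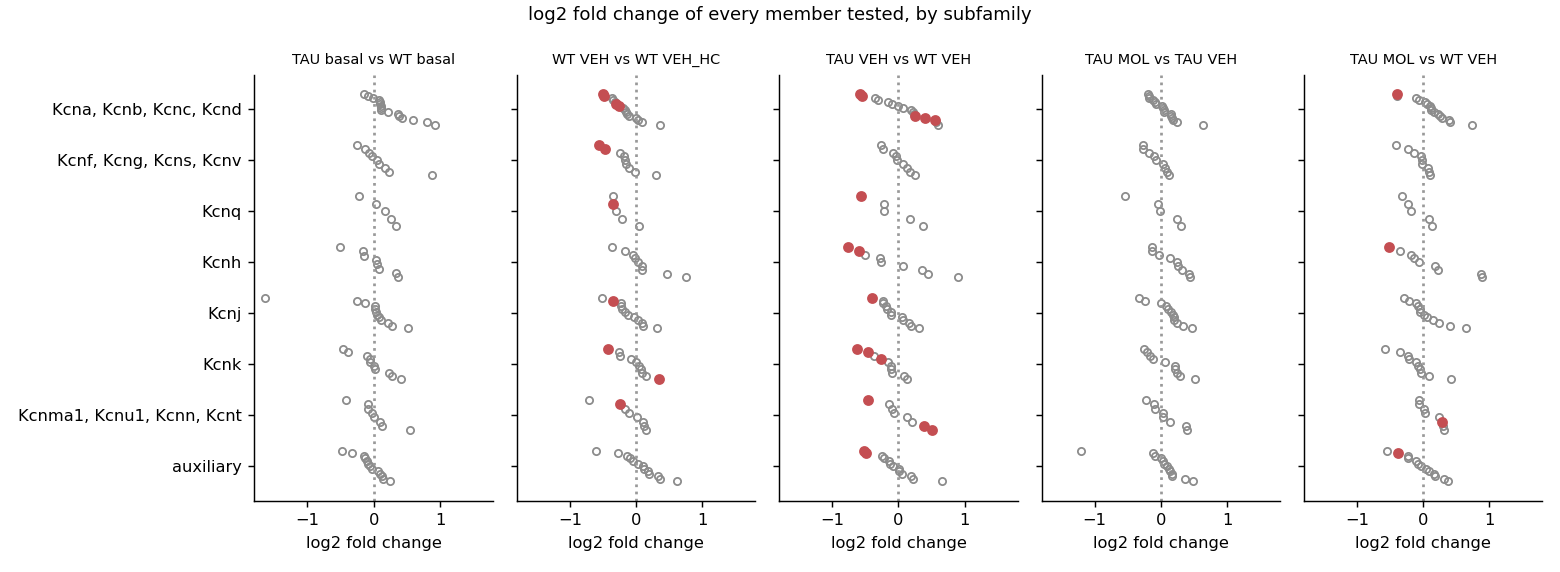
log2 fold change of each member tested, by subfamily (rows) and comparison (panels). Filled points are members called, 11 for training, 17 for TAU VEH against WT VEH, 4 for TAU MOL against WT VEH and none in the other panels.

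The difference between TAU VEH and WT VEH was set against that between TAU basal and WT basal in a joint fit of all libraries. TAU VEH mice received the carrier and WT VEH mice saline, and both were trained whereas the basal mice were not, so genotype, carrier and training cannot be told apart in this difference. In this fit 0% of genes were called higher and 0.129% lower. No member was called, 14 of 82 members and 1325 of 17026 genes had an unadjusted p under 0.05 with edgeR, and DESeq2 called 0 members. The difference was -0.58 ± 0.21 for Kcnh3 (edgeR, adjusted p = 0.513) and 0.36 ± 0.16 for Kcnq5 (edgeR, adjusted p = 0.622).

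Across the 9 learning libraries, which share the GC trend and fall into 4 groups, the log2 CPM of Kcnh3 was most like that of Kcnd1 (Pearson's r = 0.99) and Kcnab2 (r = 0.97) among 77 members with a mean of at least 10 counts. Kcnq5 was most like Kcnk9 (r = 0.71) and Kcnd3 (r = 0.70). These are descriptions of 9 libraries and were not tested.

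Genes that work with potassium channels, 20 in all with 19 tested, were followed beside the members: anchoring and trafficking partners, the sulfonylurea receptors and the Hcn channels. Of the 19, 2 were called for training, both lower (beside 3.05% of all genes), 2 lower and 1 higher in TAU VEH against WT VEH (beside 10.8% and 3.61%), and with the choroid plexus score in the model 0 of all genes were called in either. Lower in WT VEH than in WT VEH_HC were Abcc8, the receptor subunit of ATP-sensitive channels (-0.35; edgeR, adjusted p = 0.0278), and Dpp6, a partner of Kcnd channels (-0.24; adjusted p = 0.0380). In TAU VEH against WT VEH, the pacemaker channels Hcn2 (-0.55; edgeR, adjusted p = 0.00126) and Hcn3 (-0.42; adjusted p = 0.0185) were lower and Adam22, which anchors Kcna channels together with Lgi1, was higher (0.28; adjusted p = 0.0198). In TAU MOL against WT VEH, Hcn2 was lower (-0.31; edgeR, adjusted p = 0.0360) and Adam22 higher (0.34; adjusted p = 0.0191), beside 5.02% and 0.612% of all genes. Calls over all genes in that comparison were 23 with the GC and length correction and 2 with the choroid plexus score in the model. In the basal comparison and in TAU MOL against TAU VEH, edgeR called none of the 19.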

How the data were processed

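RNA-seq of the dorsal hippocampus was taken from 14 libraries in 6 groups, named by the sample labels. Per the submitters' processing notes, the authors aligned reads to mm9 with TopHat2 2.0.10 and Bowtie2 2.1.0 and counted them on genes with HTSeq 0.5.4p3. The authors deposited raw counts, which were used for every test, beside a normalized signal (each library's counts over a single factor), which no test used. The authors left 3 libraries out of the learning experiment, not analysed here. Libraries were made without strand, so reads of overlapping genes (39.5% of the exon bases of Kcna6, 31.1% of Kcnj3 and 31.0% of Kcnmb4) cannot be told apart. The 138 lines of the learning table with no values were dropped.

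edgeR 4.0.16 in R 4.3.3 fitted the basal libraries alone, the 9 learning libraries together and all 14 for the difference between experiments, with TMM factors, filterByExpr and Benjamini-Hochberg adjustment over all genes. SE is the log2 fold change divided by the root of F. DESeq2 1.42.0, DESeq2 size factors, library size alone, no filter, only the groups compared, the replicate number, each library left out, no limit on the fold change, a GC and length correction (loess span 0.3), alone and with the replicate number, and a choroid plexus covariate were alternatives. The scripts were tested on simulated data. Gene models came from the mm9 GENCODE annotation. P-values set each difference against the spread between libraries of the same group, estimated over all groups of a fit and moderated across genes. Members and lists were chosen with earlier results of these data known.

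Named in each comparison were the 4 largest increases and decreases among called members with a mean of at least 100 counts and no overlap, the 2 smallest p where fewer than 2 were called, the top member by level of each subfamily, members most like Kcnh3 and Kcnq5, members fixed by cell type, and Kcnh3 and Kcnq5. Other names were chosen after their values were seen. Some members are not reported here by name.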

Additional observations from a re-analysis of the deposited data

How the results depend on the processing

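For training in WT mice the 11 members called became 18 with DESeq2, 21 with no filter, 19 with the replicate block, 6 with the GC and length correction, 2 with only the groups compared, 0 with the choroid plexus covariate, and 0 to 16 without 1 library, while calls over all genes went from 1413 to 1845, 2686, 3000, 843, 310, 0, and 73 to 2798. For TAU VEH against WT VEH the 17 became 4 with the GC and length correction, 12 with the replicate block added to it, 25 with only the groups compared, 21 with library size alone, 0 with the choroid plexus covariate, and 8 to 12 without 1 library. Calls over all genes moved as well, in this comparison from 2423 to 581, 868, 3399, 3598, 0, and 915 to 1276. For TAU MOL against TAU VEH the 0 became 3 with DESeq2, 5 with no filter and 4 with only the groups compared, beside 54, 233 and 60 of all genes. For TAU MOL against WT VEH the 4 became 7 with DESeq2, 8 with library size alone, 9 with no filter, 8 with the replicate block, 8 with only the groups compared, 0 with the GC and length correction, 0 with the replicate block with GC and length correction, 0 with the choroid plexus covariate and 0 without any 1 library, while calls over all genes went from 947 to 1324, 1083, 1590, 1321, 1490, 23, 72, 2, and 2 to 4. With the choroid plexus covariate the log2 fold change between WT VEH and WT VEH_HC reversed for Kcnk1 (-0.066), Kcnd3 (0.058), Kcnf1 (0.56) and Kcnh3 (-0.22). The cause was not tested. Same-numbered libraries of the learning groups had deviations that correlated from -0.04 to 0.24, and since not every pair exceeded 0.1 they were not treated as paired. Whether the numbers mark a shared litter or batch was not tested. No member was called in the basal comparison, or in the difference between experiments, under the alternatives run.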
